A study of Homo sapiens with 8 samples.

Results

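The Ly6/uPAR family holds small surface and secreted proteins built on a shared fold, the Ly6/uPAR domain, which is held together by disulphide bonds. Expression of 10 of its genes that are used by squamous epithelium was followed by RNA-seq in cells of the EPC2-hTERT line, human esophageal epithelium made immortal by telomerase. The 10 were chosen by name, as LYPD3, LYPD2, LY6D, LY6K, LY6E, LY6G6C, SLURP1, PSCA, CD59 and PLAUR, and all were found among the 25369 genes of the expression table. A stable line carrying a lentiviral short hairpin RNA against HIF1A (HIF1A-KD, 4 libraries) was set against a stable line carrying a control hairpin (shCtrl, 4 libraries), and the labels number the libraries 1 to 4 in each group. HIF1A encodes HIF-1α, which is stabilised when oxygen is low, and the study is concerned with epithelial differentiation in eosinophilic esophagitis. Both lines grew in keratinocyte medium with 50 µg/ml bovine pituitary extract and 1 ng/ml epidermal growth factor. They were grown to confluence on membranes with 0.4 µm pores over 2 days, kept in 1.8 mM calcium chloride for 5 days and then exposed to air for 4 days. Both groups carry a hairpin, no untransduced cells were analysed here, and how many lines were made per hairpin is not given in these sources. A vehicle and the hydroxylase inhibitor dimethyloxalylglycine are named in the labels, which assign neither to a library. Nothing in the labels says whether the 4 libraries of a group came from separate cultures, so p-values measure only the spread between these libraries.

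Most Ly6/uPAR proteins sit on the outer face of the cell membrane on a glycosylphosphatidylinositol (GPI) anchor, and a few are secreted. In stratified epithelia they are best known as products of the suprabasal layers, where they take part in adhesion, in signalling through nicotinic acetylcholine receptors and in control of proteases and complement. PLAUR encodes the urokinase receptor uPAR, which gathers plasminogen activation at the cell surface, and CD59 blocks assembly of the complement membrane attack complex. SLURP1 is a secreted ligand of nicotinic receptors, and its loss causes the palmoplantar keratoderma Mal de Meleda.

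Expression is given as RPKM, read counts that the authors scaled by gene length and library size. Fold changes are differences of mean log2(RPKM + 0.1), HIF1A-KD minus shCtrl, a scale that understates the change of low genes. Read totals implied by the table ran from 38068729 to 65326907 per library. The target was lower at 4 of 4 numbers: HIF1A held 27.6, 18.98, 54.8 and 45.0 RPKM in HIF1A-KD libraries 1 to 4, against 95.2, 51.4, 89.8 and 122 RPKM in shCtrl libraries 1 to 4 (log2 change −1.34, SE 0.37, limma adjusted p = 0.319 and 0.0253 once library number entered as a block). Below, the paired fit has that block and the unpaired fit has none. The HIF1A groups overlapped, since HIF1A-KD 3 lay above shCtrl 2, and a two-sided exact permutation test gave p = 0.0571. The paired call of HIF1A held without number 3 (limma adjusted p = 0.0095). It was lost without number 1, 2 or 4 (0.107, 0.187 and 0.0524). Squamous markers were abundant, with KRT5 at 4616 to 5515 RPKM in HIF1A-KD and 3959 to 6369 RPKM in shCtrl, and KRT14 at 4076 to 5352 RPKM in HIF1A-KD and 3740.0 to 5154 RPKM in shCtrl. Summed over the 9 squamous markers the range was 15320 to 17000 RPKM in HIF1A-KD and 10060 to 15070 RPKM in shCtrl. KRT4, a keratin of the upper mucosal layers, held 1194 to 1984 RPKM in HIF1A-KD and 188 to 729 RPKM in shCtrl, and KRT13, its partner, 367 to 1081 RPKM in HIF1A-KD and 25.7 to 676 RPKM in shCtrl. The leukocyte genes PTPRC, CD3E and CD3D, the fibroblast gene THY1 and the melanocyte genes MLANA, TYR and SOX10 were listed at 0 in all libraries. Summed markers ranged from 14.1 to 19.3 RPKM in HIF1A-KD and 21.2 to 27.9 RPKM in shCtrl for 9 fibroblast genes, nearly all of it COL1A1, with FAP next. They were 25.2 to 87.8 RPKM in HIF1A-KD and 33.5 to 116.7 RPKM in shCtrl for 9 leukocyte genes, mostly CD68, with CD14 next. For 6 endothelial genes they were 1.39 to 12.8 RPKM in HIF1A-KD and 0.753 to 15.6 RPKM in shCtrl, mostly VWF, with KDR next. For 6 melanocyte genes they were 0.260 to 1.95 RPKM in HIF1A-KD and 0.342 to 0.900 RPKM in shCtrl, led by PMEL with DCT next.

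The starts of LYPD3 and PLAUR are shown because they are the members on chromosome 19, and their estimates in HIF1A-KD differed in sign. Each line gives the 250 bases before the RefSeq gene start in GRCh38.p14, minus strand, 5′ to 3′, at chr19:43465609-43465858 for LYPD3 and chr19:43670170-43670419 for PLAUR. Capitals mark matches on either strand to ACGTG or GCGTG, the core letters of a hypoxia response element, or to TGANTCA, the AP-1 motif.
LYPD3: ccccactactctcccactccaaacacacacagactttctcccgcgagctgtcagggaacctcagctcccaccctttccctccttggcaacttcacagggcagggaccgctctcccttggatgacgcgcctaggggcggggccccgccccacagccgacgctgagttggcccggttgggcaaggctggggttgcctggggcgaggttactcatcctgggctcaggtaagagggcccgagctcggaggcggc
PLAUR: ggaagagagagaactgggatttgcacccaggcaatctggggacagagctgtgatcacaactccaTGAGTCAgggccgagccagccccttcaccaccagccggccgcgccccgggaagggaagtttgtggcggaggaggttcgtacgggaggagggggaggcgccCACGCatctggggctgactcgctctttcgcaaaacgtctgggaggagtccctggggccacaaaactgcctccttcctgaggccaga
PLAUR held 1 match to TGANTCA, whose first base is at −186 from the start, and 1 to GCGTG on the opposite strand at −86. The LYPD3 window held none of the 3. Of the other members with a start in the table, LY6G6C also held none, and among the 4 starts of CD59, whose log2 change was −0.11, 1 held 1 match to ACGTG and 1 held 2 to TGANTCA. No match overlapped another in these windows. Among 35116 RefSeq windows of the same length, 18.5% held ACGTG, 32.2% GCGTG and 6.57% TGANTCA. These matches are letters in a window and were not tested as binding sites.

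Of the 10 genes, 6 lie together in the table's hg19 coordinates on chromosome 8, within 352 kb: PSCA (143751726 to 143764145), LY6K (143781529 to 143785584), SLURP1 (143822362 to 143823829), LYPD2 (143831628 to 143833952), LY6D (143866298 to 143868008) and LY6E (144099902 to 144103827). PSCA, LY6K and LY6E are on the plus strand and the other 3 on the minus strand. LYPD3 (43964946 to 43969831) and PLAUR (44150247 to 44174498) lie 180.0 kb apart on the minus strand of chromosome 19. CD59 lies on chromosome 11 (33724556 to 33758025, minus strand) and LY6G6C on chromosome 6 (31686425 to 31689511, minus strand). LY6K overlaps LOC100288181 on the other strand, a gene with a mean of 0.00193 RPKM in HIF1A-KD and 0 in shCtrl, and no other member overlaps a gene that the table places on a single chromosome.

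All 10 genes passed the filter of at least 0.5 RPKM in at least 4 libraries, with 467 to 113786 recovered reads per gene and library. LYPD3, which encodes the GPI-anchored adhesion protein C4.4A of suprabasal squamous cells, was the most abundant of them and stood above 99.3% of the 11899 tested genes by mean RPKM. In the unpaired fit 0 of the 10 passed an adjusted p of 0.05, against 0.0420% of all tested genes (0.0252% higher and 0.0168% lower in HIF1A-KD). At an unadjusted limma p under 0.05 there was 1 of 10 (LY6K), against 7.80% of all genes. In the paired fit LYPD3 rose and no other member passed, so 1 of 10 was called, against 1.83% of all genes (0.740% higher and 1.09% lower). At an unadjusted p under 0.05 the paired fit had 3 of 10 (LYPD3, LY6D and LY6K), against 19.6% of all genes. Of the 10 estimates 4 were above 0 and 6 below, with a median log2 change of −0.048, against 58.7% above 0 and a median of 0.064 over all tested genes. That reference depends on how libraries are scaled. With median-of-ratios scaling, 49.9% of all tested genes were above 0, with a median of −0.0011. At all 4 library numbers the difference had the same sign for 3 of 10 members (LYPD3, LY6D and LY6K), against 29.3% of all genes, a share near the background. In bulk samples a change in the share of cells and a change in RNA per cell cannot be told apart.

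**Figure D1:**
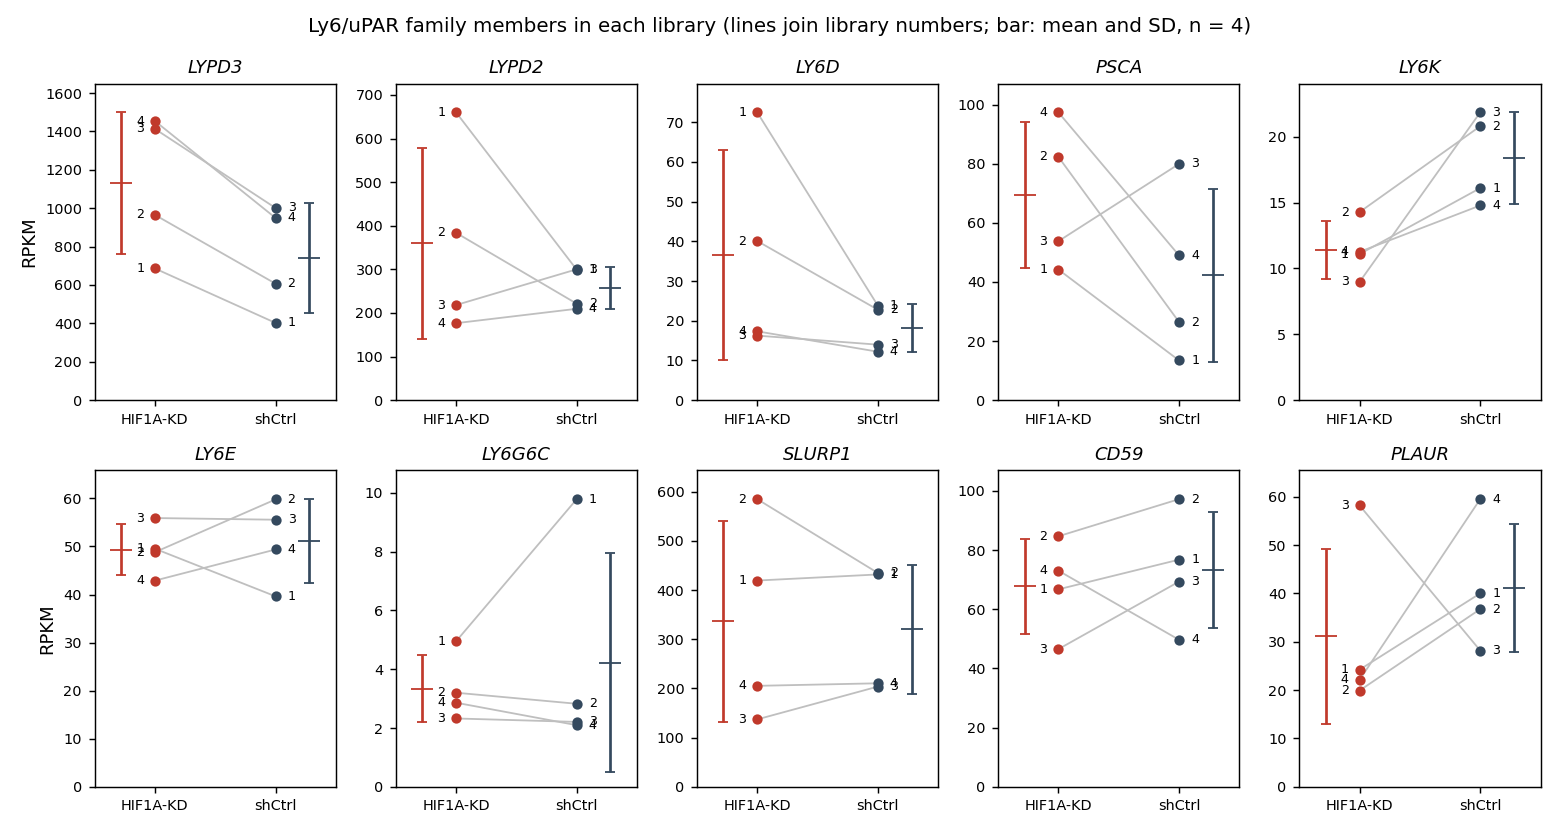
RPKM of each of the 10 genes in every library, with HIF1A-KD left and shCtrl right, grey lines joining libraries of the same number, digits giving that number and bars giving mean and SD (n = 4). The lines of LYPD3 all run the same way although its groups overlap, and LY6K is the gene whose groups do not overlap.

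LYPD3 was higher in the HIF1A-KD library at every number. It held 685.9, 965, 1413 and 1454 RPKM in HIF1A-KD libraries 1 to 4, against 402, 607, 1001 and 949 RPKM in shCtrl libraries 1 to 4. The groups overlapped, since HIF1A-KD 1 and 2 lay below shCtrl 3. The ratios of HIF1A-KD to shCtrl at numbers 1 to 4 were 1.70, 1.59, 1.41 and 1.53, a narrow range beside the spread of levels within a group. Means were 1129 ± 369.5 RPKM in HIF1A-KD and 740 ± 285 RPKM in shCtrl (SD, n = 4 each), and the log2 change was 0.64. That change did not pass unpaired (SE 0.35, limma adjusted p = 0.761) and passed in the paired fit (SE 0.08, adjusted p = 0.0259). The call thus rests on a pairing inferred from the values, and that of numbers 3 and 4 is in doubt, as given below. LYPD3 was also higher in HIF1A-KD 3 than in shCtrl 4 (1413 against 949 RPKM), and in HIF1A-KD 4 than in shCtrl 3 (1454 against 1001 RPKM). A two-sided exact permutation test without pairing gave p = 0.143. The paired call was lost without number 1 (adjusted p = 0.128), number 2 (0.206) or number 4 (0.0530), held without number 3 (0.0373), and was absent with libraries 1 and 2 against 3 and 4 as the term in place of the number (0.107). Over those settings the log2 change lay between 0.59 and 0.69, but in the unpaired fit it was 0.38 without shCtrl 1 and 0.86 without HIF1A-KD 1. Of the 9 squamous markers 0 passed either fit, and 7 had estimates above 0 with a median log2 change of 0.13. They ranged from −0.10 for TP63 and −0.06 for KRT5 to 2.15 for KRT4 and 2.37 for KRT13. The part of these markers in the LYPD3 result was not tested.

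LY6K was the member whose groups did not overlap, as was true of 5.40% of all tested genes. LY6K is a GPI-anchored protein best known as a cancer-testis antigen of squamous tumours. It held 11.1, 14.3, 8.97 and 11.3 RPKM in HIF1A-KD libraries 1 to 4, against 16.1, 20.8, 21.9 and 14.8 RPKM in shCtrl libraries 1 to 4. Every HIF1A-KD library lay below every shCtrl library, although HIF1A-KD 2 and shCtrl 4 were close. Means were 11.4 ± 2.18 RPKM in HIF1A-KD and 18.4 ± 3.47 RPKM in shCtrl (SD, n = 4 each). The log2 change of −0.68 (SE 0.20) did not pass over all genes (limma adjusted p = 0.357 unpaired and 0.0991 paired), and the two-sided exact permutation test gave p = 0.0286, the smallest that 4 against 4 allows. In the authors' deposited table LY6K has a moderated log2 ratio of −0.67 with an adjusted p of 0.0104.

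LY6D, a GPI-anchored antigen of keratinocytes that is also known as E48, was higher in HIF1A-KD at every number but by unequal amounts. It held 72.5, 40.1, 16.2 and 17.3 RPKM in HIF1A-KD libraries 1 to 4, against 23.8, 22.8, 13.97 and 12.2 RPKM in shCtrl libraries 1 to 4. HIF1A-KD 3 and 4 lay below shCtrl 1 and 2. In both groups libraries 1 and 2 were above 3 and 4, a division that the labels do not explain. The log2 change was 0.78 (limma adjusted p = 0.799 unpaired and 0.137 paired; two-sided exact permutation p = 0.257). It was 1.21 among libraries 1 and 2, 0.36 among libraries 3 and 4, and 0.36 in the unpaired fit without HIF1A-KD 1.

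LYPD2, a GPI-anchored relative of LYPD3 whose function is little described, differed in sign between these library numbers. It held 660.0, 383.8, 218 and 176.5 RPKM in HIF1A-KD libraries 1 to 4, against 299, 221, 300.1 and 209.5 RPKM in shCtrl libraries 1 to 4. HIF1A-KD was above shCtrl at numbers 1 and 2 and below it at 3 and 4. The pairing of numbers 3 and 4 is in doubt, as given below, and HIF1A-KD 3 lay just above shCtrl 4 (218 against 209.5 RPKM). The log2 change was 0.31 over all libraries (limma adjusted p = 0.965 unpaired and 0.604 paired), 0.97 among libraries 1 and 2 and −0.35 among libraries 3 and 4. Whether those 2 values differ was not tested.

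PSCA, the GPI-anchored prostate stem cell antigen that is also made by esophageal and gastric epithelium, had the largest estimate of the 10 and a wide spread. It held 44.2, 82.3, 53.8 and 97.4 RPKM in HIF1A-KD libraries 1 to 4, against 13.4, 26.4, 79.96 and 49.0 RPKM in shCtrl libraries 1 to 4. At numbers 1 to 4 HIF1A-KD stood at 3.29, 3.11, 0.673 and 1.99 times shCtrl, so it was lower at number 3. The log2 change of 0.94 (SE 0.51 unpaired and 0.39 paired) did not pass (limma adjusted p = 0.759 and 0.270; two-sided exact permutation p = 0.171). In the paired fit without number 3 it was 1.45 with an adjusted p of 0.0250, so that call depends on number 3. The pairing of numbers 3 and 4 is in doubt, as given below. Beside shCtrl 4, HIF1A-KD 3 was the higher (53.8 against 49.0 RPKM). In the same way HIF1A-KD 4 was above shCtrl 3 (97.4 against 79.96 RPKM). In the unpaired fit the log2 change was 0.49 without shCtrl 1, and 0.21 among libraries 3 and 4 alone.

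LY6E and LY6G6C, also GPI-anchored members, did not pass and had estimates near 0, with a narrow spread for LY6E and a wide one for LY6G6C. LY6E, an interferon-inducible protein that restricts entry of some viruses, was the least variable, at 42.9 to 55.9 RPKM in HIF1A-KD and 39.6 to 59.8 RPKM in shCtrl. Its log2 change of −0.04 has a 95% interval of −0.44 to 0.36 unpaired and −0.34 to 0.25 paired. LY6G6C, a gene of the major histocompatibility complex region, held 4.95, 3.20, 2.33 and 2.86 RPKM in HIF1A-KD libraries 1 to 4, against 9.79, 2.83, 2.21 and 2.10 RPKM in shCtrl libraries 1 to 4. shCtrl 1 stood well above the rest, and HIF1A-KD was above shCtrl at the other 3 numbers. The log2 change was −0.07 (95% interval −1.15 to 1.00, limma adjusted p = 0.998 unpaired and 0.905 paired) and 0.43 without shCtrl 1 (unpaired adjusted p = 0.912). The table lists LY6G6C on 7 contigs, and its length could not be read. Its values are whole reads for 6167 bases, 7 times 881, the smallest of 3 lengths tried that fit. Whole multiples of a fitting length fit as well. The length is thus inferred and not read, so the RPKM of LY6G6C was not compared in level with the other members.

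SLURP1, the secreted member, showed the library division most plainly and no difference between groups that passed. It held 419.5, 585, 137 and 205 RPKM in HIF1A-KD libraries 1 to 4, against 432, 435, 204 and 211 RPKM in shCtrl libraries 1 to 4. All libraries numbered 1 and 2 lay above all numbered 3 and 4, as for LY6D and for 27.9% of tested genes in one direction or the other. The log2 change was −0.06, with a 95% interval of −1.13 to 1.02 unpaired and −0.44 to 0.33 paired (limma adjusted p = 0.998 and 0.883). Of 13 nicotinic receptor subunit genes, to some of which SLURP1 binds, 2 could be tested and 0 passed either fit. The muscle-type subunit gene CHRNB1 held 2.85 ± 1.32 RPKM in HIF1A-KD and 5.76 ± 3.35 RPKM in shCtrl (SD, n = 4 each; limma paired adjusted p = 0.0621). CHRNA9 held 0.515 ± 0.317 RPKM in HIF1A-KD, close to the 0.5 RPKM of the filter, and 4.16 ± 5.56 RPKM in shCtrl (SD, n = 4 each; limma paired adjusted p = 0.0904). Both CHRNB1 and CHRNA9 were lower at 4 of 4 numbers, and 29.3% of all tested genes had the same sign at all 4. CHRNA7, the subunit most often linked to SLURP1, averaged 0.00112 RPKM in HIF1A-KD and was at 0 in shCtrl.

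CD59, the complement inhibitor, did not pass. It held 66.7, 84.7, 46.5 and 73.0 RPKM in HIF1A-KD libraries 1 to 4, against 76.8, 97.2, 69.3 and 49.7 RPKM in shCtrl libraries 1 to 4. HIF1A-KD was lower at 3 of 4 numbers and the groups overlapped, with a log2 change of −0.11 (95% interval −0.68 to 0.47; limma adjusted p = 0.987 unpaired and 0.790 paired). Of 21 genes of complement regulators and components, 6 could be tested, 0 passed unpaired, and in the paired fit 1 rose and 0 fell, against 0.740% higher and 1.09% lower over all tested genes. The gene that rose was CLU, which encodes clusterin, an inhibitor of the same membrane attack complex. CLU held 8.24, 4.46, 4.98 and 5.18 RPKM in HIF1A-KD libraries 1 to 4, against 2.91, 2.56, 2.68 and 2.29 RPKM in shCtrl libraries 1 to 4. Every HIF1A-KD library was above every shCtrl library, and 5.40% of all tested genes had groups that did not overlap. The log2 change was 1.07 (limma adjusted p = 0.0442 paired and 0.176 unpaired), and the paired call was lost without any 1 of the 4 numbers (0.0550 to 0.211). It was also absent with libraries 1 and 2 against 3 and 4 as the term in place of the number (limma adjusted p = 0.0631). The abundant membrane regulators CD55 (98.9 ± 44.0 RPKM in HIF1A-KD and 89.3 ± 43.9 RPKM in shCtrl) and CD46 (38.97 ± 10.99 RPKM in HIF1A-KD and 38.7 ± 9.30 RPKM in shCtrl; SD, n = 4 each) did not pass. The list's median log2 change was 0.087.

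PLAUR was lower in HIF1A-KD at 3 of 4 numbers and higher at number 3. It held 24.2, 19.9, 58.2 and 22.1 RPKM in HIF1A-KD libraries 1 to 4, against 40.0, 36.7, 28.2 and 59.5 RPKM in shCtrl libraries 1 to 4. HIF1A-KD 3 stood far above the other HIF1A-KD libraries, which all lay below all 4 shCtrl libraries. The pairing of numbers 3 and 4 is in doubt, as given below, and HIF1A-KD 3 lay just below shCtrl 4 (58.2 against 59.5 RPKM). The log2 change was −0.50 (SE 0.36, limma adjusted p = 0.852 unpaired and 0.539 paired; two-sided exact permutation p = 0.286). Without HIF1A-KD 3 it was −0.85 (unpaired adjusted p = 0.568), and in the paired fit without number 3 it was −1.01 (adjusted p = 0.0503), while without shCtrl 4 it was −0.30 (unpaired) and without number 4 −0.19 (paired adjusted p = 0.834). The size of the estimate thus rests on HIF1A-KD 3 in one direction and on shCtrl 4 in the other, and no setting tried brought a call.

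Genes that work with the urokinase receptor did not pass either fit. Of 25 such genes, 18 could be tested and 0 passed, with 7 estimates above 0 and a median log2 change of −0.066. The plasmin-assembling pair ANXA2 (993 ± 303 RPKM in HIF1A-KD and 1121 ± 329 RPKM in shCtrl) and S100A10 (553 ± 136 RPKM in HIF1A-KD and 694 ± 218 RPKM in shCtrl; SD, n = 4 each) were the most abundant. PLAU, which encodes urokinase itself, averaged 55.6 RPKM in HIF1A-KD and 50.3 RPKM in shCtrl. Of 9 genes for partners described for C4.4A, 8 could be tested and 0 passed either fit. Of those 8 estimates 2 were above 0, with a median of −0.20, against the same 58.7% and 0.064. LAMB3, a laminin chain of the epithelial basement membrane, held 230 ± 43.5 RPKM in HIF1A-KD and 309 ± 64.9 RPKM in shCtrl (SD, n = 4 each; limma adjusted p = 0.710 unpaired and 0.0554 paired). It was lower at 4 of 4 numbers, and 29.3% of all tested genes had the same sign at all 4. Galectin-3 (LGALS3) held 253 ± 106 RPKM in HIF1A-KD and 219 ± 52.7 RPKM in shCtrl (SD, n = 4 each).

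**Figure D2:**
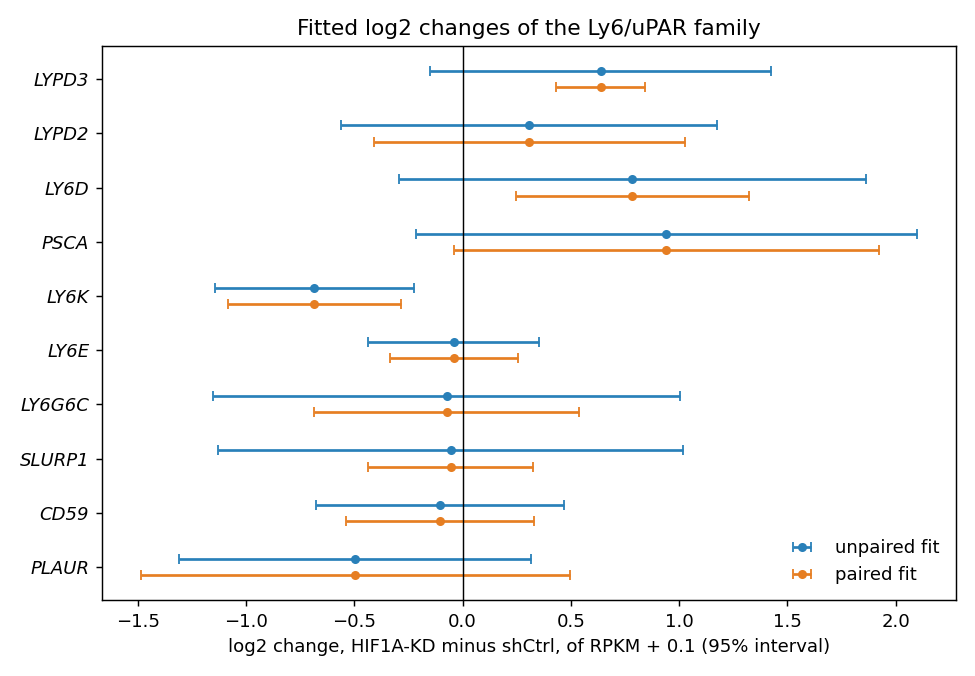
Fitted log2 change of each gene, HIF1A-KD minus shCtrl, with 95% intervals from the unpaired and the paired fit. The interval of LYPD3 narrows, to 0.43 to 0.84 in the paired fit, and that of PLAUR widens to −1.49 to 0.49.

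The 4 library numbers did not carry equal differences. HIF1A-KD 3 deviated from its group mean more like shCtrl 4 than shCtrl 3 (correlations 0.613 and 0.252), and HIF1A-KD 4 more like shCtrl 3 than shCtrl 4 (0.463 and 0.257). The differences at numbers 3 and 4 therefore depend on a pairing that is in doubt. At number 3, PSCA and LYPD2 were lower and PLAUR was higher in HIF1A-KD, with log2 differences of −0.57, −0.46 and 1.04, while LY6K had its largest difference there (−1.27). At number 1, PSCA and LY6D had log2 differences of 1.71 and 1.60. HIF1A itself differed least at number 3 (log2 difference −0.71, against −1.78, −1.43 and −1.44 at numbers 1, 2 and 4). The part of the smaller HIF1A difference in the values at number 3 was not tested.

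**Figure D3:**
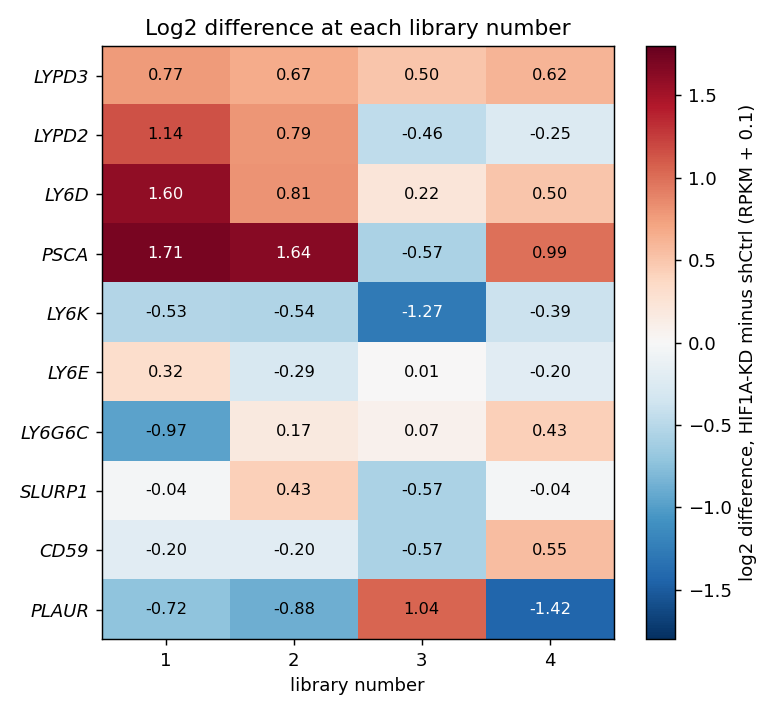
Log2 difference of RPKM + 0.1, HIF1A-KD minus shCtrl, for each gene (rows) at each library number (columns), with the value in each cell. LYPD3 and LY6D are above 0 and LY6K below 0 in all 4 columns, and the other 7 genes change sign between columns.

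Summed over the 9 members with a readable length, the family transcript level was 2034, 2224, 2008 and 2100.0 RPKM in HIF1A-KD libraries 1 to 4, against 1343, 1526, 1774 and 1604 RPKM in shCtrl libraries 1 to 4. The mean was 2091 ± 96.5 RPKM in HIF1A-KD and 1562 ± 179 RPKM in shCtrl (SD, n = 4 each). The difference between these totals was not tested, and for single genes 5.40% of those tested had groups that did not overlap. It is no rise of the family as a whole, since 6 of the 10 estimates were below 0. Much of the total is LYPD3, with means of 1129 RPKM in HIF1A-KD and 740 RPKM in shCtrl and groups that overlapped. LYPD3 made up 33.7%, 43.4%, 70.4% and 69.2% of the total in HIF1A-KD libraries 1 to 4 and 29.9%, 39.7%, 56.4% and 59.2% in shCtrl libraries 1 to 4. The SLURP1 share was 20.6%, 26.3%, 6.84% and 9.78% in HIF1A-KD and 32.2%, 28.5%, 11.5% and 13.1% in shCtrl. Shares of 1 total are tied, so a higher LYPD3 level lowers the SLURP1 share even where SLURP1 does not change. SLURP1 RPKM itself had a log2 change of −0.06, and was higher in HIF1A-KD at 1 number and lower at 3. The ratio of LYPD3 to SLURP1 was 1.63, 1.65, 10.3 and 7.08 in HIF1A-KD libraries 1 to 4, against 0.931, 1.39, 4.91 and 4.51 in shCtrl libraries 1 to 4.

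**Figure D4:**
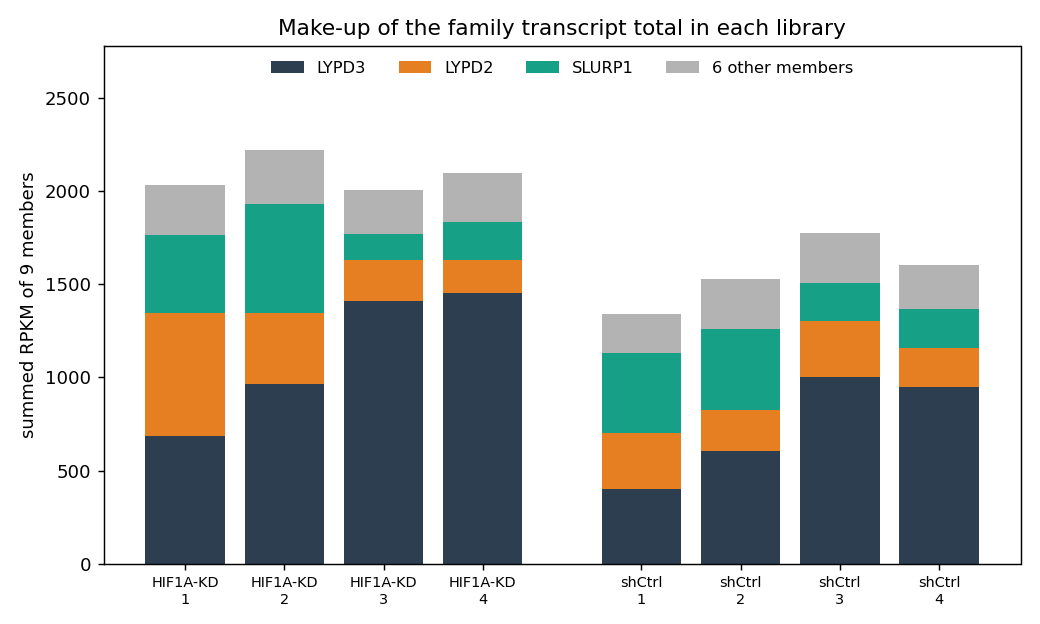
Summed RPKM of 9 members in each library, HIF1A-KD left and shCtrl right, split into LYPD3, LYPD2, SLURP1 and the other 6 members; LY6G6C is left out because its length cannot be read from the table. The 4 HIF1A-KD bars stand at 2008 to 2224 RPKM, above the 4 shCtrl bars, and the LYPD3 share is larger in libraries 3 and 4 of both groups. The difference in totals was not tested, and LYPD3 makes up much of it.

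The order of levels by mean RPKM in HIF1A-KD was LYPD3, LYPD2, SLURP1, PSCA, CD59, LY6E, LY6D, PLAUR and LY6K. In shCtrl it was LYPD3, SLURP1, LYPD2, CD59, LY6E, PSCA, PLAUR, LY6K and LY6D. LYPD2 was above SLURP1 in 2 of 4 HIF1A-KD libraries, so that pair is not ordered there, nor were PSCA and CD59 (2 of 4) or LY6D and PLAUR (2 of 4). In shCtrl, PSCA was above PLAUR in 1 of 4 libraries and LY6K above LY6D in 2 of 4, so those pairs are not ordered there. LYPD3 was above the next gene in 4 of 4 HIF1A-KD and 3 of 4 shCtrl libraries. Over all 8 libraries the highest value exceeded the lowest by a median of 3.68-fold for the members, 1.51-fold for LY6E and 7.25-fold for PSCA, against a median of 2.30-fold over all tested genes.

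Of 26 other genes of the family, 23 were in the table and 4 could be tested, and in the paired fit 1 of 4 fell and 0 rose, against 1.09% lower and 0.740% higher over all tested genes. It was LYPD5, another gene with the LYPD name. LYPD5 held 74.2, 78.7, 44.7 and 44.5 RPKM in HIF1A-KD libraries 1 to 4, against 232.6, 154.5, 87.5 and 85.2 RPKM in shCtrl libraries 1 to 4. Every HIF1A-KD library lay below every shCtrl library, as groups did not overlap for 5.40% of all tested genes, and the level in shCtrl was highest in library 1. The log2 change was −1.13 (limma adjusted p = 0.0224 paired and 0.407 unpaired), opposite in sign to that of LYPD3. The paired call was lost without number 2 (adjusted p = 0.170) and held without each other number (0.0341 to 0.0476). With libraries 1 and 2 against 3 and 4 as the term in place of the number, LYPD5 passed (limma adjusted p = 0.0223). LYNX1, a GPI-anchored modulator of nicotinic receptors that lies between LYPD2 and LY6D, held 130, 137, 151 and 109 RPKM in HIF1A-KD libraries 1 to 4, against 77.9, 83.8, 111 and 136 RPKM in shCtrl libraries 1 to 4 and did not pass (log2 change 0.39, limma adjusted p = 0.758 unpaired and 0.303 paired). LYPD6B and LY6G5B, chosen for naming after their values were seen, also did not pass, and 6 of the 23, among them LY6H and GPIHBP1, were at 0 in all libraries. Within the span of the 6 members on chromosome 8, 14 genes are listed and 8 could be tested, of which the 2 that are not members are LYNX1 and THEM6 (6.10 ± 2.18 RPKM in HIF1A-KD and 6.05 ± 2.07 RPKM in shCtrl, SD, n = 4 each).

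Most members need a GPI anchor, and of 30 genes for its synthesis and attachment 29 could be tested. In the unpaired fit 0 passed, and in the paired fit 1 of 29 fell and 0 rose, against 1.09% lower and 0.740% higher over all tested genes. Of the 29 estimates 17 were above 0 and the median log2 change was 0.11, a share near the 58.7% over all tested genes. PIGT, a subunit of the transamidase that attaches proteins to the anchor, held 25.8, 26.8, 40.5 and 35.9 RPKM in HIF1A-KD libraries 1 to 4, against 37.7, 45.5, 62.7 and 67.2 RPKM in shCtrl libraries 1 to 4. It was lower at 4 of 4 numbers, as 29.3% of all tested genes had 1 sign at all 4, although HIF1A-KD 3 lay above shCtrl 1. The log2 change was −0.71 (limma adjusted p = 0.0281 paired and 0.440 unpaired), and the paired call was lost without any 1 of the 4 numbers (0.0503 to 0.210). With libraries 1 and 2 against 3 and 4 as the term in place of the number, PIGT passed (limma adjusted p = 0.0302). DPM1, which makes the mannose donor, held 53.9 ± 23.9 RPKM in HIF1A-KD and 59.7 ± 16.2 RPKM in shCtrl (SD, n = 4 each) and did not pass.

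Across the 8 libraries, patterns closest to the 4 most abundant members were sought among 7149 tested genes with a mean of at least 5 RPKM, by Pearson correlation of log2(RPKM + 0.1). These correlations describe libraries that share groups and the division of 1 and 2 from 3 and 4. LYPD3 was most like EZR (0.996), which encodes the membrane linker ezrin, TMED10 (0.990) and NAMPT (0.988). SLURP1 was most like MCRS1 (0.998), GFOD2 (0.995) and STK11IP (0.987). LYPD2 was most like GCHFR (0.967), ANKRD54 (0.951) and C17orf103 (0.938), and CD59 was most like CBLC (0.981), TRMT61A (0.958) and COPRS (0.955). Among the members themselves, the strongest correlations were picked after they were seen. LYPD3 correlated at 0.88 with PSCA, −0.78 with LY6G6C and −0.69 with SLURP1, and LYPD2 at 0.867 with LY6D. SLURP1 correlated at 0.767 with CD59 and 0.727 with LY6D, and PSCA at −0.71 with LY6G6C.

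The authors' deposited table compares the same libraries with a moderated log2 ratio, HIF1A-KD over shCtrl, and is no independent evidence. Of the 10 members, 3 have an adjusted p under 0.05 in the authors' deposited table, against 9.02% of its 13627 genes. They are LYPD3 (moderated log2 ratio 0.54, adjusted p = 4.48e-05), LY6K and LY6D (0.63, adjusted p = 0.0456) in the authors' deposited table. PSCA has 0.60 with an adjusted p of 0.153 and PLAUR −0.43 with an adjusted p of 0.358 in the authors' deposited table. No source used here names the test behind these values.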

How the data were processed

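Libraries were built with the NEBNext Ultra kit from column-purified total RNA, per the labels' protocols. The submitters' processing notes name TopHat2 2.0.13 with HTSeq 0.6.1, among other tools, and both hg19 and hg38. Coordinates in the deposited tables carry hg19 haplotype contig names. No source used here says whether counting was strand-specific. The deposited expression table holds RPKM made by the authors. RPKM times gene length gave whole reads within 0.01 read in all libraries for 100% of genes with a readable length (597 had none, LY6G6C among them). Reads recovered this way serve only to show depth, and no count test was run. The authors' second deposited table holds the authors' fold ratio, its log2 and a p-value, and the log2 ratio ran as HIF1A-KD over shCtrl (r = 0.998 over 11753 genes).

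The main test was limma 3.58.1 (R 4.3.3), with trend and robust moderation, on log2(RPKM + 0.1), two-sided and without a block, for 11899 genes with at least 0.5 RPKM in 4 libraries. P-values were adjusted by Benjamini and Hochberg over all of them, with a threshold of 0.05. Alternatives were a replicate block, the split of libraries 1 and 2 from 3 and 4, those libraries alone, other pseudocounts and filters, median-of-ratios scaling and leaving out libraries or numbers. Deviations from the group means correlated between same-numbered libraries (0.754, 0.730, 0.252 and 0.257 for numbers 1 to 4), all over the limit of 0.1. The pairing is thus inferred from the values, since the labels give only the numbers.

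The 10 members and all gene lists were chosen with earlier results of these data known, so no count over them is independent support. From each other list the text names genes called in either fit and the 2 most abundant genes, and for LYPD3 and the 4 most abundant members the 3 genes of closest pattern. KRT4, KRT13, TP63, the markers listed at 0, PLAU, CHRNA7, LYPD6B, LY6G5B, LY6H, GPIHBP1 and THEM6 were named after their values were seen. Promoter sequences are from RefSeq, which had starts for 4 of the 10 members in the table used, and sequences of the other members were not used here.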

Additional observations from a re-analysis of the deposited data

Results flagged for a closer look

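Of 22 sets of 4 libraries examined (the 10 members and HIF1A in each group), 2 held a library far from the other 3, by a ratio of its gap to the whole range above Dixon's 95% critical value for 4 samples. Chance flags about 1 set in 20. PLAUR in HIF1A-KD 3 was 58.2 RPKM (ratio 0.887), and the other 3 HIF1A-KD libraries averaged 22.1 ± 2.16 RPKM. LY6G6C in shCtrl 1 was 9.79 RPKM (ratio 0.905), and the other 3 shCtrl libraries averaged 2.38 ± 0.39 RPKM. The reason for either value was not tested.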

How the results depend on the processing

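Under all 21 alternatives the log2 changes of LYPD3, LY6D, PSCA, LY6K, PLAUR and HIF1A kept their sign. Without 1 library (unpaired) they ranged from 0.38 to 0.86 for LYPD3, 0.36 to 1.08 for LY6D, 0.49 to 1.35 for PSCA, −0.80 to −0.58 for LY6K, −0.85 to −0.30 for PLAUR and −1.59 to −1.07 for HIF1A. The number of genes called was 5 unpaired, 218 with the replicate block, 102 with the split as a term, 0 in libraries 1 and 2 alone, 3 with either other pseudocount or the filter of 0.1 RPKM in 2 libraries, 1 without a filter, 8 with median-of-ratios scaling and 0 to 3 without 1 library. The replicate block called 33, 1, 195 and 182 genes without numbers 1 to 4. It called 1 member (LYPD3), 2 without number 3 (LYPD3 and PSCA) and 0 without each other number. HIF1A passed with the block (−1.34) and without number 3 (−1.55). Over the other alternatives without a block the member count was 0. Estimates near 0 changed sign. LY6E was 0.015 in libraries 1 and 2 alone and −0.16 to 0.040 without 1 library, and SLURP1 was 0.19 there and −0.40 to 0.30. LYPD2 was −0.35 in libraries 3 and 4 alone and −0.050 to 0.58 without 1 library, LY6G6C 0.25 and −0.29 to 0.43, and CD59 −0.28 to 0.064 without 1 library. With the block and a number left out, the ranges were −0.16 to 0.043 (0.013 without number 4) for LY6E, −0.22 to 0.12 for SLURP1, −0.24 to 0.23 for LY6G6C and −0.33 to 0.051 for CD59. The block changed no call of a member other than LYPD3. HIF1A-KD 3 deviated more like shCtrl 4 (0.613) and HIF1A-KD 4 more like shCtrl 3 (0.463) than like the shCtrl library of its own number, so the pairing of numbers 3 and 4 is uncertain. The planned limma-voom fit on recovered reads was not run, since the table holds RPKM. The cause of these changes was not tested.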

Other observations

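LY6G6C lies in a region that hg19 carries on several haplotype contigs. The RPKM values for it come out as whole reads at 6167 bases, the smallest of 3 lengths tried that do so. If that length is right, a table that divided by the 881 bases of a single contig would list it at 23.4 ± 7.95 RPKM in HIF1A-KD and 29.6 ± 26.0 RPKM in shCtrl (SD, n = 4 each). The shCtrl mean is raised by shCtrl 1, the library flagged above. The ratio of the 2 group means is the same at either length.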
